A study of Mus musculus with 39 samples.

Results

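Microglia from wildtype mice that had received 1 injection of lipopolysaccharide (LPS) 6 months earlier were compared with microglia from wildtype mice that had received vehicle alone. The comparison used 18 of the 39 libraries of the series, 9 in each group, chosen by their labels and not by any measured value. Both groups were female C57BL/6J wildtype littermates of APP23 mice, given 4 daily intraperitoneal injections at 3 months of age, with microglia taken at 9 months. The 1xLPS mice received LPS from Salmonella enterica typhimurium at 500 µg/kg once and vehicle (PBS) 3 times, and the PBS mice received vehicle 4 times. Wildtype mice given LPS 4 times (4xLPS, 6 libraries) and hemizygous APP23 mice given 1xLPS (5 libraries) or PBS (6 libraries) serve below as points of reference. APP23 mice carry mutant human amyloid precursor protein under the neuronal Thy-1 promoter, and no transgene is present in either wildtype group.

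Microglia are the resident macrophages of the brain. LPS, a component of the outer membrane of Gram-negative bacteria, is sensed by the receptor TLR4 with its co-receptors CD14 and MD-2, and signals through MyD88 and TRIF to NF-kB and interferon regulatory factors. Macrophages can keep a trace of such a challenge, either as a stronger reply to a later one (training) or as a weaker one (tolerance), through lasting marks on chromatin and altered metabolism. The comparison addressed what remained in the RNA of wildtype microglia at 9 months, long after the acute cytokine response.

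Only small differences were found at 9 months. Of 10915 gene entries, 33 were higher and 15 lower in 1xLPS than in PBS microglia (limma, Benjamini-Hochberg adjusted p under 0.05), which is 0.302% and 0.137% of those tested, and 0.44% in either direction. No called gene differed by more than 1.152-fold, and the median difference over all genes was 0.00136 on the log2 scale. The genes that rose included Psap, the precursor of the saposins that help lysosomal enzymes to break down sphingolipids, 2 zinc finger genes (Zfp408 and Zfp26), the heat shock factor Hsf2, the HSP70 gene Hspa1l, the co-chaperone gene Dnajc12, and genes of DNA replication and RNA processing (Chtf18, Recql4, Ddx51, Snrnp70 and Pspc1). Those that fell included the spindle pole gene Wdr62, the transcription factor Klf10, the granzyme inhibitor Serpinb9 and the cAMP-dependent kinase Prkx. No cytokine, interferon or complement gene of the lists examined was called.

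The 48 genes were chosen by this test, so the following shares describe them and do not test them. All 9 libraries of the 1xLPS group lay on 1 side of the PBS mean in 47 of them, and in 8 of 9 libraries for Pced1a, against 9.6% of all genes. The 1xLPS libraries did not overlap with the PBS libraries in 11 of the 48, and over the whole table in 25 genes (0.229%), 19 above (0.174%) and 6 below (0.055%). Leaving out each of the 18 libraries in turn gave 23 to 39 genes higher and 7 to 22 lower. The lower count was 7 without PBS library 4, 8 without PBS library 8 or 1xLPS library 1, and 9 without PBS library 3 or 9, against 15 with all. In all 18 of these fits 24 genes passed, 20 of the 33 risers and 4 of the 15 fallers. The other 24 genes missed the threshold in at least 1 fit, with adjusted p-values of at most 0.0785.

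**Figure D1:**
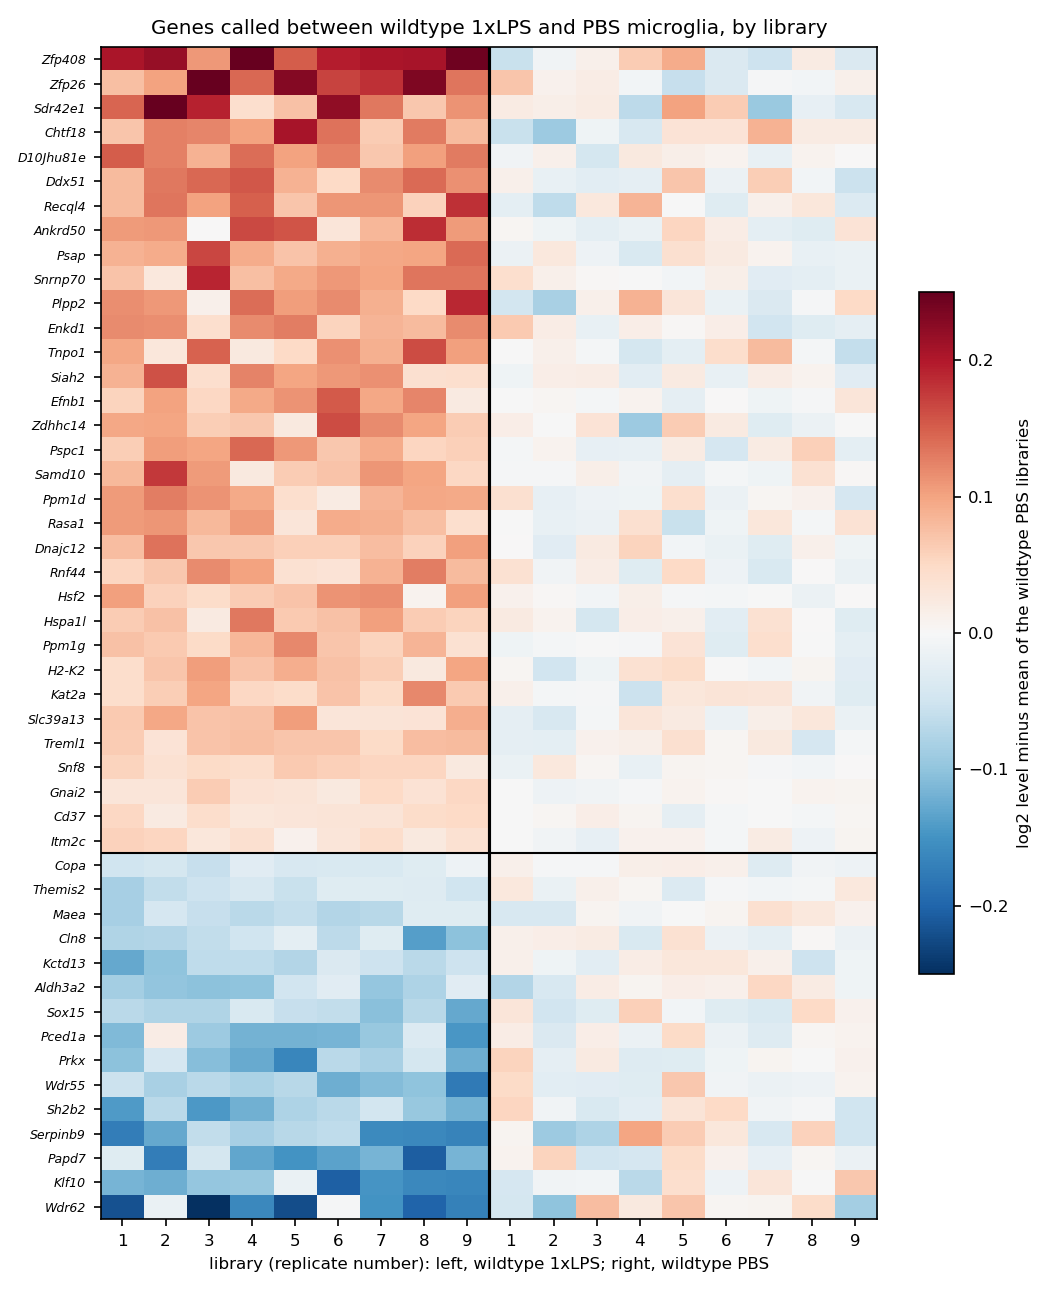
Level of each of the 48 called genes (rows) in each library (columns), 9 of wildtype 1xLPS on the left and 9 of wildtype PBS on the right, as the log2 level minus the mean of the PBS libraries. The upper 33 rows are genes higher in 1xLPS and the lower 15 are genes lower in 1xLPS, in order of their difference; the 1xLPS columns lie on 1 side of 0 in each row except for Pced1a in library 2.

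Values are log2 units from a table in which the authors had already removed surrogate variables, a step that takes out spread between libraries, so small differences and small errors stand side by side here. The median residual SD over genes was 0.0407, and the 18 libraries correlated at 0.99919 to 0.99965 within a group. Around the 6 group means of the series the 39 libraries varied in 24 directions, not the 33 that their number gives, and the test counted 24. Had 33 been counted, 365 genes would have been higher (3.34%) and 295 lower (2.7%), 6.05% of all genes in either direction. With each library shifted to a common median the counts were 35 higher and 33 lower, against 33 and 15 without that shift; the shifted values varied in 25 directions, so the residual degrees of freedom changed from 24 to 25 as well. Whether each library came from its own mouse is not stated in the labels, and the p-values therefore measure a spread between libraries that may be technical. In sorted cells a change in the mix of cells and a change of RNA per cell cannot be told apart. All 10 microglial markers examined, among them P2ry12, Tmem119 and Csf1r, were in the table at levels above 99.1% of gene entries.

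Psap rose and was the single called gene among 18 measured genes of sphingolipid degradation. Its level ran from 12.19 to 12.29 (median 12.21) in 1xLPS libraries, against 12.08 to 12.16 (median 12.11) in PBS libraries. Every 1xLPS library was above every PBS library, and the log2 difference was 0.10 (SE 0.018, adjusted p = 0.0117). Psap lies on chromosome 10, 60277627 to 60302597, plus strand (GENCODE M21, GRCm38). Hexa, the alpha subunit of hexosaminidase that works with a saposin-like activator on gangliosides, differed by 0.035 (SE 0.012, adjusted p = 0.175). The list had 9 positive and 9 negative differences and a median of 0.000163, below the median over all genes. None of 33 genes of lysosomal proteases and acidification was called, where 0.44% of all genes were. In that list Lipa (-0.035) and Atp6ap1 (0.02) passed with 33 degrees of freedom only.

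Called genes outside that list included some of membrane traffic and lipids. Cln8, which carries newly made lysosomal enzymes out of the endoplasmic reticulum, fell, with 11.39 to 11.50 (median 11.46) in 1xLPS libraries against 11.48 to 11.56 (median 11.53) in PBS libraries, a difference of -0.069 (SE 0.014, adjusted p = 0.0278); 7 of the 9 1xLPS libraries were below all PBS libraries. Copa, the alpha subunit of the COPI coat that returns vesicles from the Golgi, fell by 0.038 (SE 0.0081, adjusted p = 0.033; 0.0531 without PBS library 4). Snf8, a subunit of the ESCRT-II complex that sorts membrane proteins towards the lysosome, rose by 0.049 (SE 0.011, adjusted p = 0.0417; 0.068 without PBS library 1). Aldh3a2, an enzyme that oxidises fatty aldehydes, fell by 0.074 (adjusted p = 0.0397; 0.061 without 1xLPS library 7), and Plpp2, a lipid phosphate phosphatase, rose by 0.10 (adjusted p = 0.0397; 0.068 without PBS library 1). Slc39a13, a zinc transporter of the early secretory pathway, rose by 0.067 (adjusted p = 0.0278) and kept its call in every fit with a library left out.

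The largest rises belonged to zinc finger genes. Zfp408 (chromosome 2, 91643669 to 91649791, minus strand) had levels of 9.29 to 9.49 (median 9.38) in 1xLPS libraries, against 9.12 to 9.27 (median 9.17) in PBS libraries. The groups did not overlap, and the difference of 0.20 (SE 0.033, adjusted p = 0.00493) is a 1.15-fold change. Zfp26 (chromosome 9, 20428449 to 20460162, minus strand) ran from 10.29 to 10.48 (median 10.39) in 1xLPS libraries against 10.16 to 10.29 (median 10.21) in PBS libraries, again without overlap, with a difference of 0.17 (SE 0.031, adjusted p = 0.0172). Zinc finger genes form a large family with similar sequences, and no label or header says how reads shared between members were counted, which leaves the values of single members uncertain. The smallest adjusted p of all was that of D10Jhu81e (chromosome 10, 78162066 to 78169782, minus strand), at 8.44 to 8.52 (median 8.49) in 1xLPS libraries against 8.32 to 8.39 (median 8.38) in PBS libraries, a difference of 0.11 (SE 0.015, adjusted p = 0.000436). Its groups did not overlap either. Leaving out any single library left the adjusted p of D10Jhu81e at 0.000976 or below.

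Of the transcription and chromatin regulators, Klf10, a Krüppel-like factor induced by TGF-beta, fell. Klf10 levels were 9.17 to 9.36 (median 9.26) in 1xLPS libraries against 9.31 to 9.44 (median 9.37) in PBS libraries, and 8 of the 9 1xLPS libraries lay below all PBS libraries (difference -0.12, SE 0.026, adjusted p = 0.0278). Sox15, an SRY-box factor, fell by 0.075 (adjusted p = 0.0416; 0.071 without PBS library 8). Kat2a, the histone acetyltransferase GCN5, rose, with 10.16 to 10.24 (median 10.18) in 1xLPS libraries against 10.06 to 10.15 (median 10.11) in PBS libraries and no overlap, a difference of 0.068 (SE 0.015, adjusted p = 0.0358); its adjusted p was 0.0583 without PBS library 9. None of 20 histone deacetylases and sirtuins, 22 H3K4 methyltransferases and demethylases or 19 lineage factors of microglia was called. Only 0.44% of all genes were called, so lists of this size can hold none without differing from the rest. The lineage factor Mitf (-0.097) passed with 33 degrees of freedom only (limma, adjusted p = 0.0244).

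Of the other risers, 3 have known parts in protein folding, a grouping made after the genes were called. All 3 had a mean level below the lower quartile of 8.081 (Hspa1l 5.63, Hsf2 6.56 and Dnajc12 7.63). They were therefore not in the fit without genes of low level. Hsf2, a heat shock transcription factor (chromosome 10, 57486385 to 57513135, plus strand), had levels of 6.527 to 6.634 (median 6.589) in 1xLPS libraries against 6.504 to 6.533 (median 6.518) in PBS libraries. The PBS libraries of Hsf2 lay close together and 8 of the 9 1xLPS libraries were above all of them, with a difference of 0.075 (SE 0.015, adjusted p = 0.0221). Hspa1l, an HSP70 family member, rose by 0.073 (SE 0.015, adjusted p = 0.0278), with 8 of 9 libraries above all PBS libraries. Dnajc12, a J-domain co-chaperone, rose by 0.079 (SE 0.018, adjusted p = 0.0396; 0.0572 without PBS library 9), and its groups did not overlap.

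Genes of DNA replication, repair and cell division moved in both directions. Recql4, a helicase of replication origins and repair, rose by 0.11 (SE 0.023, adjusted p = 0.0278), with 6 of 9 1xLPS libraries above all PBS libraries. Chtf18, a subunit of the clamp loader that acts in sister chromatid cohesion, rose by 0.12 (SE 0.027, adjusted p = 0.0441; 0.0732 without PBS library 1). Ppm1d, a phosphatase induced by p53 that ends the DNA damage signal, rose by 0.087 (adjusted p = 0.0278). Wdr62, a protein of the spindle pole and centrosome (chromosome 7, 30240138 to 30280419, minus strand), had the largest fall among the called genes, with 8.64 to 8.90 (median 8.73) in 1xLPS libraries against 8.80 to 8.98 (median 8.91) in PBS libraries. The groups overlapped: 1xLPS libraries 2 and 6 lay among the PBS libraries, and the difference was -0.16 (SE 0.035, adjusted p = 0.0358), with an adjusted p of 0.0571 without 1xLPS library 5. Wdr62 was the single called member of 28 measured centrosome, spindle and cell cycle genes, whose differences were split 14 and 14. Over all genes 0.44% were called.

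RNA processing genes were also among those called. Snrnp70, the 70K protein of the U1 splicing particle, had 11.37 to 11.54 (median 11.45) in 1xLPS libraries against 11.32 to 11.39 (median 11.35) in PBS libraries (difference 0.10, SE 0.019, adjusted p = 0.0172). Pspc1, a protein of the nuclear paraspeckles (chromosome 14, 56720710 to 56778316, minus strand), had 8.15 to 8.24 (median 8.19) in 1xLPS libraries against 8.06 to 8.16 (median 8.10) in PBS libraries, and 7 of 9 1xLPS libraries were above all PBS libraries (difference 0.088, SE 0.019, adjusted p = 0.0295). Ddx51, an RNA helicase of ribosome assembly, rose by 0.11 (adjusted p = 0.0221), while Wdr55, a nucleolar protein of ribosomal RNA processing, fell by 0.095 (adjusted p = 0.0295) with no overlap between its groups. Papd7, a poly(A) polymerase of the noncanonical kind now named Tent4a, fell by 0.12 (adjusted p = 0.0197). Ppm1g, a phosphatase that acts on splicing factors, rose by 0.071 (adjusted p = 0.043; 0.0705 without PBS library 9), and Tnpo1, an import receptor of RNA-binding proteins, rose by 0.09 (adjusted p = 0.043; 0.078 without PBS library 9).

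Among signalling genes, Rasa1, a GTPase-activating protein that switches Ras off, rose with 9.79 to 9.87 (median 9.84) in 1xLPS libraries against 9.70 to 9.80 (median 9.75) in PBS libraries (difference 0.082, SE 0.016, adjusted p = 0.0278). Gnai2, the inhibitory G protein subunit through which P2Y12 and chemokine receptors signal, rose by 0.04, in narrow groups that did not overlap: 11.248 to 11.288 (median 11.260) in 1xLPS libraries and 11.212 to 11.232 (median 11.223) in PBS libraries (SE 0.0083, adjusted p = 0.0278). Efnb1, the membrane ligand ephrin-B1, rose by 0.09 (adjusted p = 0.0172). Siah2, a ubiquitin ligase of the hypoxia pathway, rose by 0.09 without overlap (adjusted p = 0.0295). Prkx, a catalytic kinase subunit activated by cAMP, fell, with 9.96 to 10.08 (median 10.02) in 1xLPS libraries and 10.09 to 10.18 (median 10.12) in PBS libraries. All 9 libraries of the 1xLPS group were below all PBS libraries of Prkx (difference -0.095, SE 0.021, adjusted p = 0.0358), and its adjusted p was 0.0604 without PBS library 1. Sh2b2, an adaptor of receptor tyrosine kinases, fell by 0.097 (adjusted p = 0.0358; 0.0589 without PBS library 1).

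Immune genes were few among those called. Cd37, a leukocyte tetraspanin, rose by 0.037, with 10.859 to 10.888 (median 10.868) in 1xLPS libraries against 10.814 to 10.852 (median 10.836) in PBS libraries and no overlap (SE 0.0077, adjusted p = 0.0278). Serpinb9, an inhibitor of granzyme B, fell by 0.12, with 9.18 to 9.29 (median 9.22) in 1xLPS libraries against 9.26 to 9.45 (median 9.36) in PBS libraries (SE 0.027, adjusted p = 0.0406; 0.0671 without PBS library 8). Themis2, a signalling scaffold of B cells and macrophages, fell by 0.048 (adjusted p = 0.0441; 0.0785 without PBS library 9). Treml1, a receptor of the TREM cluster best known from platelets, rose by 0.065 (adjusted p = 0.0278). H2-K2, annotated as a transcribed pseudogene of the MHC class I family, rose by 0.071 (adjusted p = 0.0396; 0.0664 without PBS library 9), but its near-identical relatives make its value uncertain. The remaining called genes were the risers Sdr42e1 (0.14), Ankrd50 (0.10), Enkd1 (0.096), Zdhhc14 (0.088), Samd10 (0.087), Rnf44 (0.079) and Itm2c (0.036), and the fallers Pced1a (-0.09), Kctd13 (-0.071) and Maea (-0.057). Of these, Ankrd50 and Enkd1 kept their call whichever library was left out, while Samd10 passed in 5 of 18 such fits and Maea in 6. Chtf18, Themis2, Maea and Samd10 were the 4 genes just inside the threshold (adjusted p 0.0441 to 0.0484), and Kcnk6, Lfng, Dock9 and Chmp7 the 4 just outside (0.0559 to 0.0565).

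**Figure D2:**
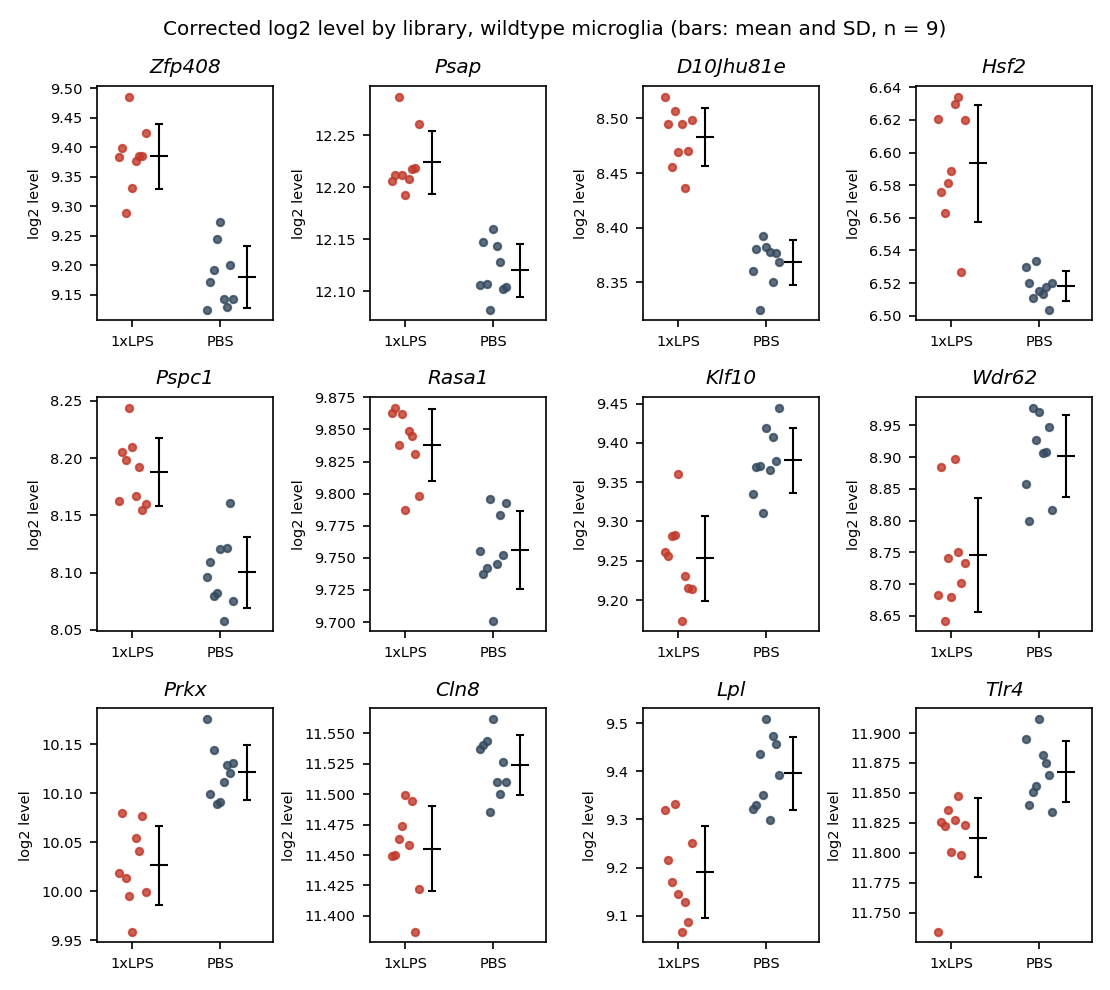
Corrected log2 level of 12 genes in each library of wildtype 1xLPS (left, red) and wildtype PBS (right, blue) microglia, with the mean and SD of 9 libraries each; each panel has its own axis, which does not start at 0. The groups do not overlap in Zfp408, Psap, D10Jhu81e and Prkx, while they overlap in the other 8; Lpl and Tlr4, in the last row, did not pass the test.

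The start sites of 5 of these genes are shown because the genes carry the results above and the genotype comparison below: the 250 bases before the annotated start, 5′ to 3′ on the gene's own strand, from RefSeq (GRCm38.p6). They are chr2:91649792-91650041 (minus strand), chr10:60277378-60277627 (plus), chr10:57486135-57486384 (plus), chr14:56778319-56778568 (minus) and chr7:30280422-30280671 (minus). Capitals mark matches, on either strand, to the E-box CACGTG, the cAMP response element TGACGTCA, the NF-kB consensus, the PU.1 form GAGGAAGT, the heat shock core GAANNTTC, the GC box GGGCGG and the CCAAT box, named after its letters.
Zfp408: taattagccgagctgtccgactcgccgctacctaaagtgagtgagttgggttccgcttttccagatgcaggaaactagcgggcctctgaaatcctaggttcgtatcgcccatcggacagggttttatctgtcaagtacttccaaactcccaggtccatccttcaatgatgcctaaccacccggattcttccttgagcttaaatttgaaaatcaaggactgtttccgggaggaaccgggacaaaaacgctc
Psap: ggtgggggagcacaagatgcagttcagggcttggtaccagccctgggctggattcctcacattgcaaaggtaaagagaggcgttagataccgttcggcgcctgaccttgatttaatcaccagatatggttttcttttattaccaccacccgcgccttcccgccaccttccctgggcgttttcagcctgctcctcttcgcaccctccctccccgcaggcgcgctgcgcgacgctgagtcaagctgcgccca
Hsf2: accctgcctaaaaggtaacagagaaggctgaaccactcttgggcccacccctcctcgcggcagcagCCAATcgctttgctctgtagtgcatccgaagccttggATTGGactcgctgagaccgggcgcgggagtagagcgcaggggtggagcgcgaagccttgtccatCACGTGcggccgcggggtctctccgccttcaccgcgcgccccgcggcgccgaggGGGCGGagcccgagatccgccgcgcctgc
Pspc1: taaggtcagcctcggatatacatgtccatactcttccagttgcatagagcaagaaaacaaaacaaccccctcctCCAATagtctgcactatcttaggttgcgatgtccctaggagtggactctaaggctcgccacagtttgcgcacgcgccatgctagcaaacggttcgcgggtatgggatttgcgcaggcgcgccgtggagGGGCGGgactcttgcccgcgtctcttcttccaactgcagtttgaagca
Wdr62: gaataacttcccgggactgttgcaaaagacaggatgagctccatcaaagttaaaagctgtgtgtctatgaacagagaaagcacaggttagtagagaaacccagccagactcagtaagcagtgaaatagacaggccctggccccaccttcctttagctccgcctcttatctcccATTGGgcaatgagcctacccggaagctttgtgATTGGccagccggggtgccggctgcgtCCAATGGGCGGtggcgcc
Psap and Wdr62 each have 2 windows in the source, of which the first is shown. The shares in the next paragraph count a gene if any of its windows held the letters. Zfp408 and Psap held none of these letters in the window shown. Hsf2 held 1 E-box, 78 bases before the start, 1 GC box and 2 CCAAT boxes, and Pspc1 held 1 GC box and 1 CCAAT box. In Wdr62 a CCAAT box runs directly into a GC box near the start, and further CCAAT boxes lie 73 and 41 bases before it.

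Over the 23 risers with a promoter entry, 17.4% held the E-box, as did 22.2% of the 9 fallers with an entry, against 10.3% of the 8535 genes of the table with an entry. The cAMP response element occurred in 8.7% of risers (2 genes), 0 of 9 fallers and 3.2% of all genes. The NF-kB consensus was found in 1 of 23 risers (4.35%) and 0 of 9 fallers, and in 5.23% of all genes. The PU.1 form and the heat shock core were each in 4.35% of risers and 0 of 9 fallers, against 3.02% and 6.32% of all genes. The GC box was present in 60.9% of risers, 66.7% of fallers and 64.3% of all genes. The CCAAT box was present in 39.1% of risers, 22.2% of fallers and 40.3% of all genes. These are counts of letters in a short window and describe no binding.

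Of 31 measured genes of TLR4 signalling 0 passed with 24 degrees of freedom, where 0.44% of all genes did, and 3 with 33, where 6.05% of all genes did, and the median of the list was 0.00202, beside 0.00136 over all genes. Tlr4 itself was at 11.73 to 11.85 (median 11.82) in 1xLPS libraries and 11.83 to 11.91 (median 11.87) in PBS libraries. Of the 9 1xLPS libraries 7 lay below every PBS library, but the difference of -0.055 (SE 0.014, adjusted p = 0.0794) passed only with 33 degrees of freedom (adjusted p = 0.00795). Chuk (0.051), a kinase upstream of NF-kB, and Tlr6 (-0.058) also passed only with 33. The co-receptor Cd14 was at 11.05 ± 0.026 in 1xLPS libraries and 11.05 ± 0.018 in PBS libraries (SD, n = 9 each), a difference of 0.002 (SE 0.012). Of 20 negative regulators of this pathway, Tollip (-0.069) alone passed, with 33 degrees of freedom.

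No cytokine or chemokine gene was called by either count of degrees of freedom. Over all genes 0.44% were called with 24 and 6.05% with 33, so lists as short as those below can hold none. Of 14 measured cytokine and chemokine genes 9 had negative differences, with a median of -0.00731. Il1b, the cytokine interleukin 1 beta, was at 7.66 to 7.79 (median 7.73) in 1xLPS libraries and 7.71 to 7.91 (median 7.79) in PBS libraries, all 9 below the PBS mean, but the difference of -0.072 (SE 0.038, adjusted p = 0.381) did not pass. Tnf, tumour necrosis factor, differed by -0.02 (SE 0.038, adjusted p = 0.851). Of 25 type I interferon response genes 13 were positive, with a median of 0.0117, and Bst2 (0.048), which tethers budding virus, passed with 33 degrees of freedom only. Of 15 complement genes 12 were positive (80%, against 52.3% of all genes), with a median of 0.0186, and none passed at either count.

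Of 28 homeostatic microglia genes 26 had positive differences, 92.9% against 52.3% of all genes, with a median of 0.0213. As in every list here, the members were measured in the same libraries and are not independent of each other. None of the homeostatic genes passed with 24 degrees of freedom, where 0.44% of all genes did. Csf1r, the receptor for the growth factors CSF1 and IL-34, was at 13.586 to 13.798 (median 13.687) in 1xLPS libraries and 13.557 to 13.670 (median 13.645) in PBS libraries (difference 0.063, SE 0.024, adjusted p = 0.197). P2ry12, the ADP receptor that guides microglial processes, differed by 0.034 (SE 0.023, adjusted p = 0.498), Tmem119 by 0.048 (SE 0.025, adjusted p = 0.372) and the fractalkine receptor Cx3cr1 by 0.029 (SE 0.025, adjusted p = 0.624). Rhob (0.065), a small GTPase, passed with 33 degrees of freedom only (limma, adjusted p = 0.0156), where 6.05% of all genes did.

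Of 16 genes of lipid uptake, storage and efflux, 13 had negative differences, with a median of -0.0215. The positive share was 18.8%, against 52.3% of all genes. Lpl, the lipoprotein lipase that frees fatty acids for uptake and that is high in plaque-associated microglia, had the largest negative difference in the whole table. Lpl levels were 9.07 to 9.33 (median 9.17) in 1xLPS libraries and 9.30 to 9.51 (median 9.39) in PBS libraries, and 7 of 9 1xLPS libraries were below all PBS libraries. The SD of Lpl was 0.096 in 1xLPS and 0.076 in PBS libraries, and the difference of -0.21 (SE 0.064, adjusted p = 0.128) passed only with 33 degrees of freedom. The droplet coat gene Plin2 (-0.048), the desaturase Scd2 (-0.058) and the acid lipase Lipa (-0.035) were lower with 33 degrees of freedom only. Nceh1 (0.07), a cholesterol ester hydrolase, was higher with 33 only. Over all genes 6.05% passed with 33. Of 28 plaque- or disease-associated genes, which include Lpl, 16 were positive, among them the signalling adaptor Tyrobp (difference 0.066, SE 0.017, adjusted p = 0.0749) and Trem2 (difference 0.02, SE 0.014, adjusted p = 0.512), and Csf1 was negative (difference -0.10, SE 0.035, adjusted p = 0.17).

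Glucocorticoids are stress hormones that restrain macrophages. Of 16 genes of the glucocorticoid receptor and its induced genes, 14 had positive differences (87.5%, against 52.3% of all genes), with a median of 0.0274. None was called with 24 degrees of freedom, where 0.44% of all genes were, and the members are not independent of each other. Per1, a clock gene that the receptor also induces, was at 8.875 to 9.156 (median 8.954) in 1xLPS libraries and 8.691 to 9.006 (median 8.803) in PBS libraries, all 9 above the PBS mean though the groups overlapped (difference 0.17, SE 0.045, adjusted p = 0.0865). Fkbp5, which dampens the receptor, differed by 0.12 (SE 0.039, adjusted p = 0.136), the kinase gene Sgk1 by 0.052 (SE 0.014, adjusted p = 0.09) and the mTOR inhibitor gene Ddit4 by 0.13 (SE 0.041, adjusted p = 0.136). These 4 passed with 33 degrees of freedom, where 3.34% of all genes were higher, and not with 24. Nr3c1, the receptor itself, differed by -0.015 (SE 0.012). In the list of 18 clock genes, which shares Per1, 12 differences were negative, and Clock (0.086) passed with 33 degrees of freedom only. Times of day of injection and of tissue collection are not in the labels, and their part in these values was not tested.

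Among 27 phosphodiesterase and cAMP genes 18 differences were negative. Pde4b, the phosphodiesterase that limits cAMP in LPS-stimulated macrophages, was at 10.17 to 10.38 (median 10.25) in 1xLPS libraries and 10.30 to 10.48 (median 10.38) in PBS libraries, with 7 of 9 libraries below all PBS libraries, a difference of -0.14 (SE 0.034, adjusted p = 0.063) that passed only with 33 degrees of freedom (adjusted p = 0.00587). The list of oxidative phosphorylation, restricted to nuclear genes, had 67 measured members, of which 44 were positive, with a median of 0.00794. In that list 0 passed with 24 degrees of freedom, against 0.44% of all genes, and 7 were higher with 33, against 3.34% of all genes, among them Ndufs7 (0.039) and Cox7b (0.039). The lists of glycolysis (29 measured genes), HIF-1 and its targets (18), mTOR and Akt signalling (33), TGF-beta signalling (16), sterol synthesis (21), phagocytic and Fc receptors (27), antigen presentation (21), proteasome (37) and immediate early genes (22) held no gene called with 24 degrees of freedom, and their medians lay between -0.00635 and 0.0142. Over all genes 0.44% were called with 24 degrees of freedom, so lists of this size can hold none. With 33 degrees of freedom, where 6.05% of all genes passed, members of 7 of these lists did. The Fc receptor genes Fcgr1, Fcgr2b and Fcer1g, the adaptor Tyrobp and, in the HIF-1 list, Hif1an (0.093) and Ddit4 were higher. Pdp1 (-0.13), Arnt (-0.058), Pik3cd (-0.041), Hmgcs1 (-0.078), Psmb10 (-0.036), Psmd2 (-0.042) and Klf6 (-0.043) were lower.

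**Figure D3:**
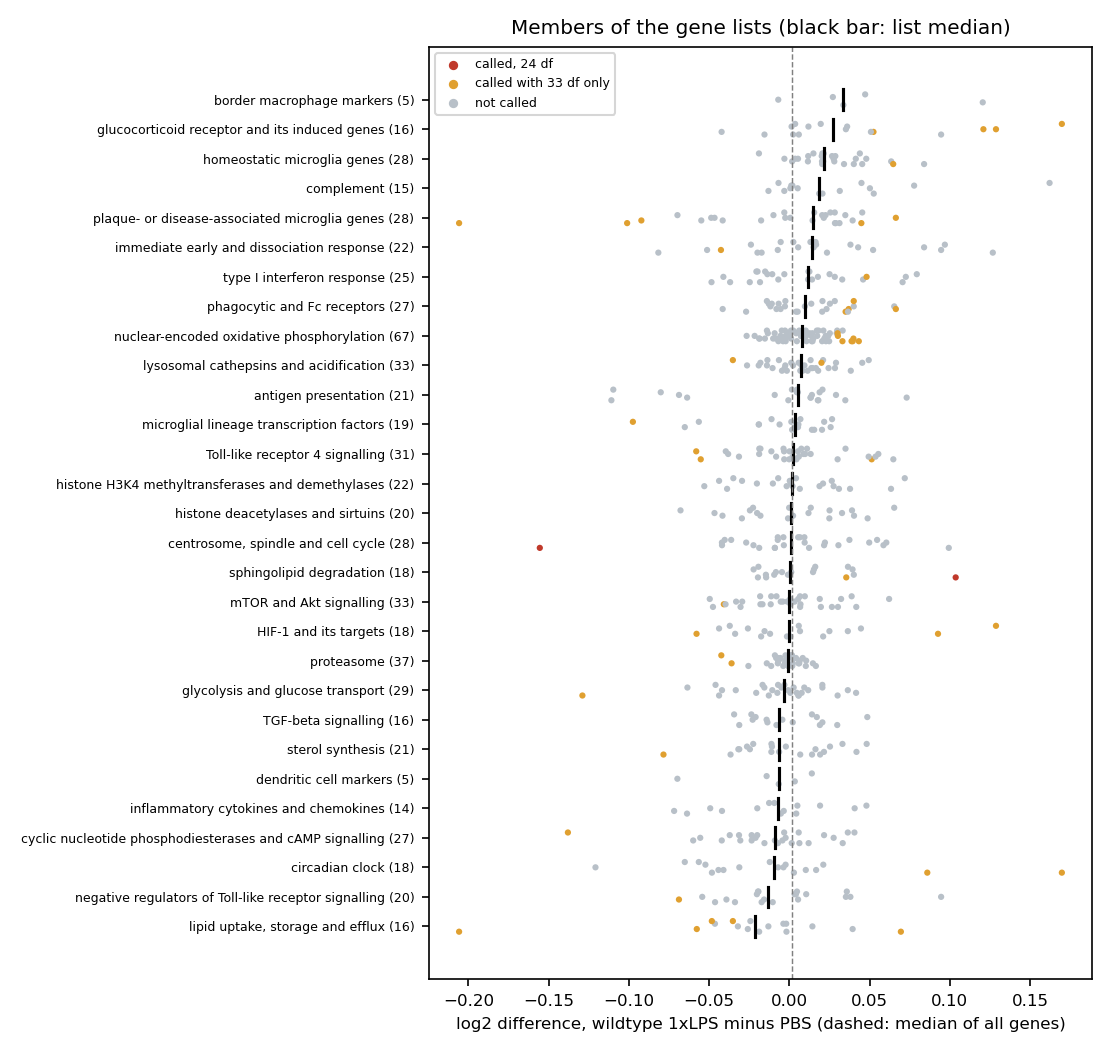
Log2 difference, wildtype 1xLPS minus PBS, of each measured member (points) of the gene lists with 5 or more measured members, with the number measured in brackets, the list median as a black bar and the median over all genes as a dashed line. Red points passed with 24 degrees of freedom (Psap and Wdr62), orange points with 33 only and grey points with neither; list medians run from -0.0215 for lipid handling to 0.0337 for the border macrophage markers.

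Markers of other cells were mostly missing from the table, and whether the authors filtered on low values is not stated. Of 14 lymphocyte markers 1 was measured, of 12 neuron markers 2 and of 13 monocyte and neutrophil markers 3. Of 11 dendritic cell markers 5 were measured, of 9 astrocyte markers 3, of 11 oligodendrocyte markers 4 and of 12 endothelial and mural markers 3. Cd3e, Ly6c2, S100a8, Snap25 and Gfap were not in the table. Some of those measured had high mean levels, among them Slc1a3 (11.685), Bsg (10.75), Cnp (10.62), Mbp (10.06), Cd79b (9.38) and Ccr2 (9.10). Others were low, such as Plac8 (6.61) and Rbfox3 (5.66). No marker was called by either count of degrees of freedom, where 0.44% of all genes were called with 24 and 6.05% with 33. Lists with so few measured genes can hold none without differing from the rest. The border macrophage list had 5 of 11 markers and 4 positive differences, and its summed level on the log2 scale lay between 13.04 and 13.15 in 1xLPS libraries and between 13.02 and 13.09 in PBS libraries, which overlap. For oligodendrocyte markers the summed level was 11.77 to 11.84 in 1xLPS libraries and 11.81 to 11.85 in PBS libraries. For monocyte and neutrophil markers it was 9.434 to 9.677 in 1xLPS libraries and 9.453 to 9.716 in PBS libraries. Their part in the results above was not tested.

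The authors deposited co-expression modules for these genes, named by colours and made from the same libraries, so their make-up describes the called genes and is no independent support. Of the 33 risers, 20 were in the brown module, which holds 11.9% of all genes of the table, 7 in pink (4.1%) and 4 in red (6.72%). Of the 15 fallers 6 were in turquoise (16.9%), 3 in yellow (8.05%) and 4 in grey (27.3%), the colour for genes without a module. The median difference was 0.0238 over the 1296 genes of the brown module and 0.0218 over the pink one, against -0.0172 over the yellow and -0.00791 over the turquoise one. No gene of the brown or pink module was called lower, with 24 or with 33 degrees of freedom.

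The same LPS dose in APP23 mice gave an independent set of libraries, though the surrogate variable correction had been made over all of them. There, 0 of 10915 genes passed in 1xLPS against PBS with 24 degrees of freedom (limma; smallest adjusted p 0.0709, and 924 genes had an unadjusted p under 0.05), and 45 were higher (0.412%) and 33 lower (0.302%) with 33 degrees of freedom, 0.715% in all. The groups were smaller, with 5 and 6 libraries, and without APP23 PBS library 1 a single gene was called lower. Of the 33 genes that rose in wildtype mice 12 had positive differences in APP23 mice, 36.4% against 49.4% of all genes. Their median difference was 0.0878 in wildtype mice, where they had been selected, and -0.0171 in APP23 mice. Of the 15 that fell 8 were positive in APP23 mice, with a median of -0.0901 in wildtype and 0.00462 in APP23 mice. Selection by the wildtype test makes wildtype differences large, so a smaller size in APP23 mice follows in part from the choice of genes. The wildtype PBS libraries entered that choice as well. In each called gene the APP23 PBS mean lay on the same side of the wildtype PBS mean as the wildtype 1xLPS mean. Ddx51 means were 9.07 in wildtype PBS, 9.19 in wildtype 1xLPS and 9.22 in APP23 PBS libraries. Those of Klf10 were 9.38, 9.25 and 9.15. The part of this PBS difference in the genotype comparison was not tested.

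The difference between the genotypes was tested itself. In the interaction of LPS and genotype 4 genes passed (0.0366% of all), 2 with a higher and 2 with a lower response in wildtype mice (0.0183% each). With 33 degrees of freedom these were 210 (1.92%) and 160 (1.47%), 3.39% in all. Both genes with a higher wildtype response were among the 33 risers, but the wildtype difference enters both tests, so this overlap is no support. Hsf2 ran from 6.527 to 6.634 (median 6.589) in wildtype 1xLPS libraries against 6.504 to 6.533 (median 6.518) in wildtype PBS libraries. In APP23 mice Hsf2 was at 6.518, 6.509, 6.492, 6.491 and 6.585 in the 5 1xLPS libraries, against 6.566 to 6.614 (median 6.587) in the 6 PBS libraries. The response of Hsf2 was 0.075 in wildtype and -0.069 in APP23 mice, which differ by 0.14 (SE 0.024, adjusted p = 0.0163). APP23 PBS libraries lay above wildtype PBS libraries of Hsf2 without overlap.

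Pspc1 had a like arrangement. In APP23 mice it was at 8.12, 8.12, 8.06, 8.03 and 8.11 in 1xLPS libraries, against 8.12 to 8.19 (median 8.17) in PBS libraries, beside the wildtype values given above. Its responses of 0.088 in wildtype and -0.071 in APP23 mice differ by 0.16 (SE 0.031, adjusted p = 0.044). The call was lost without any one of 6 libraries, with adjusted p-values of 0.0507 to 0.0877, the highest without APP23 1xLPS library 4 (the others being wildtype 1xLPS libraries 3 and 7, wildtype PBS library 9 and APP23 PBS libraries 3 and 5), and when the genes of lowest level were left out (0.0758). H2-Q7 and H2-Q9, near-identical MHC class I genes whose reads may not be separable, showed the opposite. H2-Q7 was at 6.840 to 6.933 (median 6.884) in wildtype 1xLPS libraries against 6.874 to 7.018 (median 6.950) in wildtype PBS libraries, and at 7.002, 6.998, 7.121, 7.048 and 6.981 in APP23 1xLPS libraries against 6.868 to 6.934 (median 6.900) in APP23 PBS libraries. The response of H2-Q7 differed by -0.19 (SE 0.034, adjusted p = 0.0163) and that of H2-Q9 by -0.19. In both of these genes the 5 APP23 1xLPS libraries lay above the 6 APP23 PBS libraries. The number of genes in this test moved with single libraries, from 1 to 13 higher and from 2 to 10 lower when 1 of the 29 was left out, the highest counts being those without wildtype PBS library 3 (13) and wildtype 1xLPS library 9 (10). One of these counts moved by more than 1.5 times without any of wildtype 1xLPS libraries 2, 3, 5, 7 and 9, wildtype PBS libraries 2, 3, 4, 5 and 9, APP23 1xLPS libraries 3, 4 and 5 and APP23 PBS libraries 1, 2, 5 and 6.

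For most of the called genes the interaction gave no call. Zfp408 differed between 1xLPS and PBS by 0.20 in wildtype and 0.11 in APP23 mice (SE 0.042; interaction adjusted p = 0.502). Psap differed by 0.10 in wildtype and -0.0021 in APP23 mice (interaction 0.11, SE 0.029, adjusted p = 0.133), where APP23 PBS libraries were at 12.21 to 12.27 (median 12.24). Zfp26 differed by 0.17 in wildtype and -0.039 in APP23 mice (interaction adjusted p = 0.0983), and Klf10 by -0.12 in wildtype and 0.021 in APP23 mice (0.148). Of the 48 called genes 10 had an interaction adjusted p under 0.1, against 33 of all 10915 genes, and the wildtype values enter both tests.

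**Figure D4:**
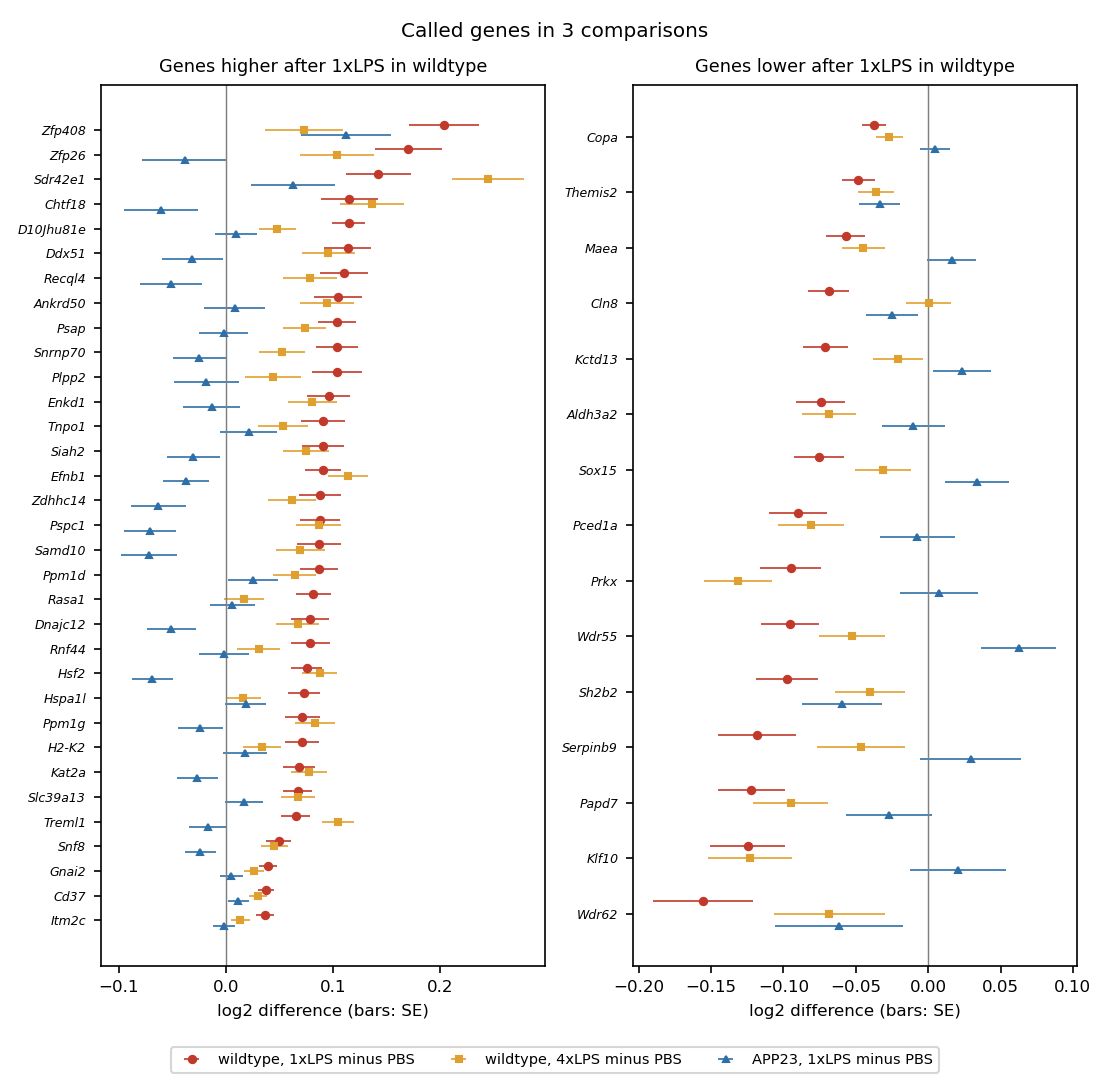
Log2 difference with its SE for the 33 genes called higher (left) and the 15 called lower (right) in wildtype 1xLPS against PBS, in 3 comparisons: wildtype 1xLPS minus PBS (red circles), wildtype 4xLPS minus PBS (orange squares, same PBS libraries) and APP23 1xLPS minus APP23 PBS (blue triangles, other libraries). Most blue triangles sit near 0, with 21 of 33 below 0 on the left and 8 of 15 above 0 on the right.

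Wildtype mice given 4 LPS injections had been set against PBS in the same way. The 1xLPS and 4xLPS comparisons share the 9 PBS libraries, so each gene's values are given side by side and their likeness is no result. Psap differed from PBS by 0.10 (SE 0.018) after 1xLPS and by 0.074 (SE 0.02, adjusted p = 0.0589) after 4xLPS. Zfp408 differed by 0.20 after 1xLPS and 0.073 after 4xLPS, and Hsf2 by 0.075 after 1xLPS and 0.087 after 4xLPS. Prkx differed by -0.095 after 1xLPS and -0.13 after 4xLPS, and Klf10 by -0.12 after 1xLPS and -0.12 after 4xLPS. Rasa1 differed by 0.082 after 1xLPS and 0.017 after 4xLPS, and Cln8 by -0.069 after 1xLPS and 0.00034 after 4xLPS. Levels of Sdr42e1, a short-chain dehydrogenase gene, were 8.09 to 8.29 (median 8.20) after PBS, 8.23 to 8.47 (median 8.32) after 1xLPS and 8.39 to 8.48 (median 8.43) after 4xLPS. Over all genes, 96 were higher (0.88%) and 69 lower (0.632%) after 4xLPS than after PBS, 1.51% in all, and with 33 degrees of freedom 554 (5.08%) and 423 (3.88%), 8.95% in all. The lower count was 42 without PBS library 6. Set directly against 4xLPS, 1xLPS microglia had 1 gene higher and 1 lower (0.00916% each, 0.0183% in all), neither among the 48. With 33 degrees of freedom 37 were higher (0.339%) and 35 lower (0.321%), 0.66% in all. Cds1, a synthase of CDP-diacylglycerol, was higher after 1xLPS than after 4xLPS by 0.093 (SE 0.017, adjusted p = 0.0335), a call lost without 1xLPS library 4, and Sumf1, which activates sulfatases, was lower, with a difference of -0.073 (SE 0.012, adjusted p = 0.0111). For Zfp408 the difference between 1xLPS and 4xLPS was 0.13 (SE 0.037, adjusted p = 0.269), and for Cln8 -0.069 (SE 0.016, adjusted p = 0.133).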

How the data were processed

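Microglia were sorted by flow cytometry, with amplification of RNA by Smart-seq v4, and libraries were made with Nextera XT, per the labels' protocols. The submitters' processing notes name FastQC, STAR 2.3.060, HOMER, DESeq2, limma and the mouse build mm10, with settings and order not given in the sources used here. Expression values as deposited by the authors are on a log scale, read here as log2 (no source states the base), after normalization and, according to the name of the sheet, removal of surrogate variables. Values ran from 3.46 to 13.8 and library means from 9.001 to 9.01, so depth is unknown. Module names come from a second deposited table. The expression table had 10915 entries (10914 distinct symbols, 16 of them turned into dates and not named) and 1 column that matched no label, which was not used.

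The model, fitted per gene with limma 3.58.1 under R 4.3.3, had 6 group means over 39 libraries, 9 covariates for directions with no residual variance (24 residual degrees of freedom) and a mean-variance trend; p-values were adjusted over all entries, and adjusted p under 0.05 was called. The correction over all libraries may also have changed the group differences themselves, which cannot be read from the table. SE is that of limma, and ± is the SD between libraries. Alternatives were 33 degrees of freedom, 18 or 24 libraries, a replicate block, no trend, robust moderation, median centring, leaving out genes below the lower quartile of level and leaving out each library. Named were, among called genes above the lower quartile of level, the 15 largest rises and up to 15 falls (13 qualified), list members by call and level, and 16 fixed genes; the remaining called genes, the interaction genes and Nceh1, Fcer1g, Cds1 and Sumf1 were named after their values were seen. Genes and 35 lists were chosen with earlier results of these data known. Coordinates are from GENCODE M21, matched by symbol.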

Additional observations from a re-analysis of the deposited data

Results flagged for a closer look

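Pspc1 was called for its response to 1xLPS in the 2 genotypes. The wildtype and the APP23 response differed by 0.159 on the log2 scale in the limma interaction test (adjusted p = 0.044). Hsf2 differed in the same direction by 0.144 (adjusted p = 0.0163). H2-Q7 and H2-Q9 differed in the other direction by -0.194 and -0.193 (adjusted p = 0.0163 for both). The last pair are near-identical genes and may count as 1 measurement. The call of Pspc1 was lost without some single libraries and without the genes of lowest level, as given above. The PBS means of Pspc1 also differed, at 8.159 in APP23 and 8.100 in wildtype mice.

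Chtf18 stood apart in wildtype 1xLPS library 5, at 7.338, with the next highest library of its group at 7.268. Its gap covered a share of 0.494 of the group's range. Of 96 groups of called genes examined in this way (1xLPS and PBS), 1 stood out, where chance would give about 4.8 for unselected genes. These genes were selected by a test that favours small spread, in values with surrogate variables removed. The low count therefore says nothing about the quality of the libraries.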

How the results depend on the processing

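The 48 called genes kept their direction under every alternative in which they were fitted, but for many alternatives this was fixed in advance. The fits with 33 degrees of freedom, 18 or 24 libraries, no trend, robust moderation or fewer genes use the same group means. Leaving out a 1xLPS library cannot reverse the 47 genes with all 9 libraries on 1 side of the PBS mean. Of the 48 genes, 13 lie below the lower quartile of level and were not in the fit without such genes. With 33 degrees of freedom the counts, higher and lower, were 365 and 295 in wildtype 1xLPS against PBS, 45 and 33 in APP23 1xLPS against PBS, 210 and 160 for the interaction, 554 and 423 in wildtype 4xLPS against PBS and 37 and 35 in wildtype 1xLPS against 4xLPS. The 18 libraries alone gave 261 and 210, and the 24 wildtype libraries 319 and 252, with 499 and 406 for 4xLPS against PBS and 35 and 39 for 1xLPS against 4xLPS; these smaller fits have no missing directions to leave out. Median centring, which also left 25 residual degrees of freedom, gave 33 lower in wildtype 1xLPS, 1 and 1 in APP23, 8 and 9 for the interaction, 132 lower in 4xLPS and 3 and 2 between 1xLPS and 4xLPS. Without the genes below the lower quartile of level the counts were 1 and 1 in APP23, 0 and 0 for the interaction and 3 and 2 between 1xLPS and 4xLPS; Hsf2, H2-Q7 and H2-Q9 were not in that fit, so their interaction calls were not retested. Without a trend 2 were lower between 1xLPS and 4xLPS. The cause of the other shifts was not tested.

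Leaving out 1 library gave 23 to 39 higher and 7 to 22 lower in wildtype 1xLPS against PBS, 0 to 0 and 0 to 1 in APP23, 1 to 13 and 2 to 10 for the interaction, 67 to 115 and 42 to 92 in 4xLPS and 0 to 3 and 1 to 3 between 1xLPS and 4xLPS. The replicate numbers did not pair the libraries: residual correlations of same-numbered wildtype 1xLPS and PBS libraries ran from -0.127 to 0.287, and 1 of 9 correlated best with its own number. The replicate block left 16 residual degrees of freedom, against 24 in the main fit. With this block 18 were higher and 10 lower in wildtype 1xLPS, of which 15 and 7 were among the 48. So 26 of the 48 lost their call, Gnai2, Cd37, Prkx, Recql4 and Slc39a13 among them (limma, adjusted p 0.0625 to 0.0711). The part of the fewer degrees of freedom in this loss was not tested. The other counts with this block were 2 and 2 in APP23, 6 higher for the interaction, 15 and 10 in 4xLPS and 0 and 0 between 1xLPS and 4xLPS.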
